A study of Mus musculus with 8 samples.

Results

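The genotype difference in the PMSG change was measured in granulosa cells of the mouse ovary, which surround and feed the oocyte. PMSG is a gonadotropin with FSH-like activity that drives follicle growth. All 8 libraries of the series were used, 2 in each of 4 groups from female C57BL/6 animals. The groups were wild type (WT) without treatment (0 h), WT 44 h after PMSG, knockout (KO) without treatment and KO 44 h after PMSG. The labels gave the knockout as CNOT6/6L KO and as Cnot66l DKO. They named no allele, Cre driver, age or PMSG dose, and did not say whether libraries came from separate animals or pools. The p-values therefore reflect the spread among the libraries alone, and this may be technical. For each gene, the change in WT (44 h minus 0 h) was subtracted from the change in KO, on log2(FPKM + 1), where FPKM is the number of fragments scaled to transcript length and library size. This value is called the genotype difference here: below 0, the gene ended lower relative to its start in KO than in WT. It was computed for 13564 of 23235 genes, those that reached 1 FPKM in 2 or more libraries, leaving out 731 short RNA entries (symbols starting Mir, Snor or Scarna). At the edge of that filter, 463 genes reached it in exactly 2 libraries and 729 genes in exactly 1. The second-highest FPKM was 1.001 in the gene just inside and 0.999989 in the gene just outside.

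CNOT6 and CNOT6L are deadenylase subunits of the CCR4-NOT complex, beside CNOT7 and CNOT8. The complex shortens the poly(A) tail of mRNA, the step that starts decay of most mRNAs. Under FSH, granulosa cells divide, make estrogen from androgen and acquire the LH receptor. They then gain the enzymes and cholesterol supply for progesterone synthesis as they approach luteal differentiation. A genotype difference in the PMSG change can come from a different level at 0 h, at 44 h or at both, so all 8 values are given for most genes described.

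The 2 KO libraries at 44 h stood apart from each other, so many counts, list medians and gene values are also given with each of them alone. Between libraries of a group, the number of genes at least 1 apart on the log2 scale was 251 in untreated WT, 317 in WT after PMSG, 361 in untreated KO and 1459 in KO after PMSG. Relative depth, read from the steps between low FPKM, ranged from 0.904 to 1.25 with the median library at 1, and KO replicate 2 at 44 h was the deepest. The granulosa identity genes were all measured. Their summed FPKM was 25079 in KO replicate 1 at 44 h and between 9988 and 15732 in the other libraries. Markers of other cells were present too. Summed oocyte markers were 3613 and 6096 FPKM in untreated WT, then 2011 and 2022 after PMSG. In KO they were 9989 and 8551, then 4792 and 2826. Summed theca and stroma markers after PMSG were 286 and 453 for KO, against 460.02 and 453 for WT. Fewer cells of a type and less RNA per cell cannot be told apart in such bulk samples. The part of these cells in the results below was not tested.

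The targeted genes were read in every library. Untreated WT had 29.1 and 18.4 FPKM of Cnot6, and WT after PMSG 26.0 and 26.9. Untreated KO had 11.7 and 12, and after PMSG the library labelled KO replicate 1 had 26.7 and replicate 2 had 17.4. KO lay below WT at 0 h, and replicate 1 lay within the WT range at 44 h. The genotype difference of Cnot6 was 0.63 (log2, SE 0.376, limma unadjusted p = 0.136). Cnot6l was 6.11 and 7.07, then 4.2 and 2.63 in WT, against 4.69 and 1.97, then 2.01 and 1.61 in KO. Its genotype difference was 0.25 (SE 0.478, limma unadjusted p = 0.622). Cnot6l lay below WT in both KO libraries at 44 h. The labels do not say which exons are missing, and FPKM over a whole gene can stay above 0 after a partial deletion. Cnot6 thus did not set the library labelled KO replicate 1 apart from WT at 44 h. It is called KO replicate 1 from its label alone, and each direction drawn from it carries this limit. Genes raised by PMSG in WT had a median change of 0.0089 to 0.30 in that library, against 1.01 to 1.42 in WT, as described further on. A weak response of this 1 library to PMSG and an effect of genotype cannot be told apart, and this holds for every call and value that rests on it.

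With all 8 libraries, limma called 0 of 13564 genes at a Benjamini-Hochberg adjusted p under 0.05 (0%), and 242 genes (1.78%) had an unadjusted p under 0.05, 94 higher (0.693%) and 148 lower (1.09%), where 678.2 would be 5%. The smallest adjusted p was 0.518, for the histone gene Hist2h2ab. It was 0.466 and 0.423, then 1.23 and 1.30 FPKM in WT, and 2.1 and 2.2, then listed at 0 in both libraries in KO. An exact 0 may be a failed estimate in such a table. The median difference over all genes was -0.0060, and 109 genes (0.804%) were at or above 1 and 281 (2.07%) at or below -1. With KO replicate 1 alone at 44 h these were 261 (1.92%) and 818 (6.03%), and with replicate 2 alone 288 (2.12%) and 177 (1.3%).

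The 2 KO libraries at 44 h gave different answers. With the library labelled KO replicate 1 as the only KO library at 44 h, limma called 115 genes at an adjusted p under 0.05 (0.848% of 13564), 106 of them lower (0.781%) and 9 higher (0.0664%). With replicate 2 alone, limma called 0 genes (0%), the smallest adjusted p was 0.12, and 540 genes (3.98%) had an unadjusted p under 0.05. In these fits the lone library is assumed to vary like those of the other groups. The lower genes were chosen by a value that holds the WT change. Their direction in WT is therefore not read as a result. The median difference of these lower genes was -2.55 with replicate 1, which was used to choose them, and -0.34 with replicate 2. Both values share the WT libraries and the KO libraries at 0 h, which also entered the choice. The value with replicate 2 is therefore not a separate check.

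**Figure D1:**
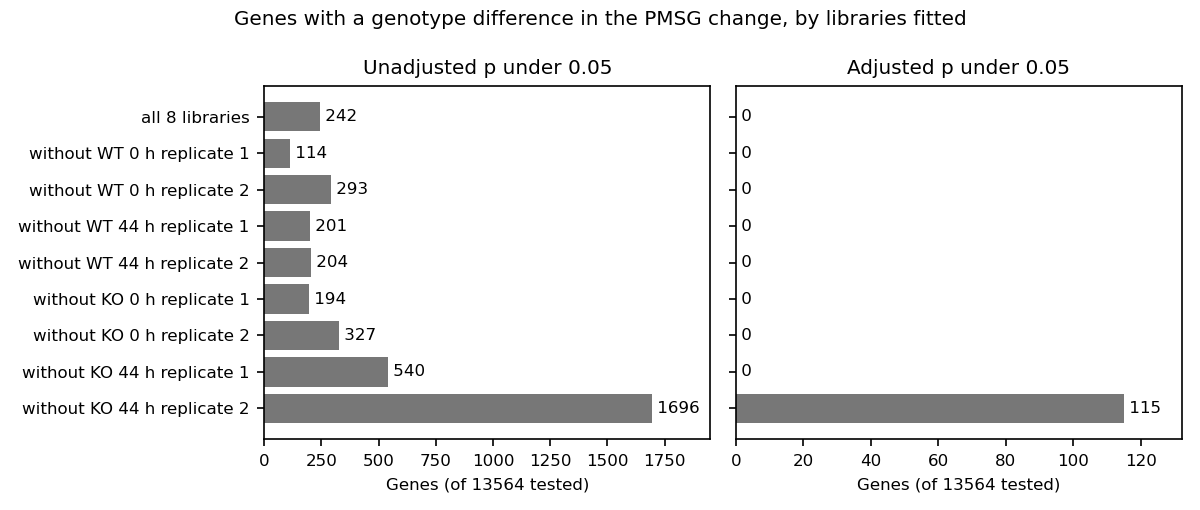
Number of genes (horizontal axes) with an unadjusted p under 0.05 (left) and an adjusted p under 0.05 (right) for the genotype difference in the PMSG change, in limma fits of all 8 libraries and without each library in turn. Leaving out KO replicate 2 at 44 h gave 115 calls, and each of the other fits gave 0.

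Genes on which the libraries did not disagree were read from the 16 combinations of 1 library per group. The sign was the same in all 16 for 1376 of 13564 genes (10.1%), 765 of them lower (5.64%) and 611 higher (4.5%). The genes described next are the 12 of each direction with the smallest p among those with a group mean of at least 5 FPKM. None of them passed the adjusted test with all 8 libraries (limma adjusted p of 1.00 for each), so their values are a description.

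Among genes with a lower change in KO, Cst8, which encodes a cystatin-family protein, had the highest level. It was 13.1 and 15.4 FPKM in untreated WT, then 212 and 395 after PMSG. KO had 21.6 and 17.5, then 72.2 and 117. At 44 h both KO libraries lay below both WT libraries, and at 0 h both lay above. The genotype difference was -2.08 (log2, SE 0.467, limma unadjusted p = 0.00234), at -2.42 with KO replicate 1 and -1.73 with replicate 2 alone.

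Cish encodes a feedback inhibitor of cytokine and prolactin receptor signalling through STAT5. It was 0.721 and 0.939 FPKM in untreated WT, then 8.46 and 12.9 after PMSG, against 1.46 and 0.892, then 0.608 and 2.24 in KO. At 44 h both KO libraries lay below both WT libraries, and the difference was -2.57 (SE 0.516, limma unadjusted p = 0.00121), at -3.07 and -2.06 with KO replicates 1 and 2. Zpld1, a gene for a zona pellucida domain protein, was 3.07 and 3.25, then 28.0 and 40.0 in WT, and 8.15 and 8.47, then 10.3 and 27.7 in KO. Its difference was -2.10 (SE 0.564). Kcnk3, a background potassium channel, was 1.27 and 1.60, then 9.48 and 8.88 in WT, and 3.61 and 2.72, then 1.39 and 4.98 in KO, a difference of -2.20 (SE 0.562). For both genes KO lay above WT at 0 h and below it at 44 h, without overlap.

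Ccl17, a chemokine gene, was 2.27 and 1.55, then 11.3 and 12.2 FPKM in WT, and 5.89 and 9.92, then 10.5 and 6.55 in KO (-2.04, SE 0.430). Mfsd4, a transporter-family gene, was 1.58 and 2.11, then 7.71 and 7.70 in WT, and 2.76 in both libraries, then 1.93 and 4.32 in KO (-1.55, SE 0.419). Acsl1, which activates long-chain fatty acids with coenzyme A, was 7.43 and 8.13, then 13.2 and 12.9 in WT, and 12.2 and 9.60, then 9.38 and 7.90 in KO (-0.98, SE 0.276). In these 3 genes the level at 44 h was higher than at 0 h in both WT libraries and the KO libraries at the 2 times overlapped or went the other way. Ceacam10, of a family of similar genes whose reads may be shared, had a difference of -1.47 (SE 0.372).

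In Lims2 and Lmcd1 the genotypes were further apart at 0 h than at 44 h, and in Gadd45b and Hist1h4c at 44 h. Lims2, an adaptor of integrin adhesions, was 8.37 and 10.6 FPKM in untreated WT, then 4.97 and 5.09 after PMSG, but 39.8 and 47.0 in untreated KO, then 12.3 and 8.60 after PMSG. Its difference was -1.18 (SE 0.316, limma unadjusted p = 0.00624). Lmcd1, which encodes a LIM domain protein that represses GATA factors, was 1.97 and 3.57, then 3.11 and 2.58 in WT, and 13.6 and 16.8, then 3.23 and 5.37 in KO (-1.70, SE 0.421). Gadd45b, a stress-response gene, was 7.97 and 12.6, then 8.27 and 6.18 in WT, and 17.6 and 15.7, then 2.24 and 3.17 in KO (-1.83, SE 0.378, limma unadjusted p = 0.00142). Lims2 and Lmcd1 were above WT in KO at both times, and Gadd45b was above WT at 0 h and below it at 44 h. Hist1h4c, one of several similar histone H4 genes, was 3.18 and 1.44, then 7.72 and 3.71 in WT, and 3.58 and 3, then listed at 0 in both libraries in KO.

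Among genes with a higher change in KO, several were lower at 44 h than at 0 h in both WT libraries and by less, or not, in KO. Rai2, named for induction by retinoic acid, was 21.3 and 23.2 FPKM in untreated WT, then 8.97 and 9.13 after PMSG, against 17.8 and 14.1, then 19.2 and 13.3 in KO. The difference was 1.22 (log2, SE 0.307, limma unadjusted p = 0.00431), at 1.47 with KO replicate 1 and 0.98 with replicate 2. Ddit4l, an inhibitor of mTORC1 signalling, was 97.1 and 97.8, then 54.6 and 51.9 in WT, and 49.9 and 39.4, then 50.4 and 73.9 in KO (1.31, SE 0.299, limma unadjusted p = 0.00256). Rai2 differed between genotypes without overlap at both times, with KO below WT at 0 h and above it at 44 h. Cyp2s1, a cytochrome P450, was 67.2 and 60.5, then 31.0 and 36.2 in WT, and 45.7 and 49.7, then 43.1 and 40.2 in KO (0.72, SE 0.222). Fancg, of the Fanconi DNA repair pathway, and Spc24, a kinetochore subunit, had differences of 0.99 (SE 0.318) and 0.71 (SE 0.228).

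Others were higher at 44 h than at 0 h in KO, among them Capn5 and Lgals3bp, which were about level in WT. Capn5, a calpain protease, was 7.23 and 6.82, then 8.16 and 8.19 FPKM in WT, and 2.49 and 3.57, then 8.18 and 9.04 in KO (1.07, SE 0.291, limma unadjusted p = 0.00659). Lgals3bp, a secreted galectin-binding glycoprotein, was 51.7 and 31.6, then 33.0 and 47.1 in WT, and 44.7 and 32.7, then 84.3 and 94.2 in KO (1.24, SE 0.399). Klf15, a transcription factor of energy metabolism, and Nmb, the neuromedin B precursor, had differences of 1.07 (SE 0.345) and 1.16 (SE 0.375). Klf15 was 17.0 and 13.7, then 11.8 and 14.4 in WT, and 6.15 and 6.56, then 15.3 and 9.81 in KO. Nmb was 24.5 and 23.5, then 15.6 and 22.0 in WT, and 16.6 and 18.9, then 41.0 and 24.6 in KO. Both genes lay below WT in KO at 0 h. The KO libraries thus met the WT level at 44 h in Capn5 and exceeded it in Lgals3bp. The class I MHC genes H2-Q6 (1.20, SE 0.374) and H2-T9 (0.88, SE 0.290) were also above WT in both KO libraries at 44 h, but belong to a family of near-identical genes between which reads may be split. The same limit holds for Rpl26, a ribosomal protein gene with many copies in the genome, at 196 and 217, then 99.1 and 131 in WT, and 99.9 and 106, then 229 and 136 in KO (1.62, SE 0.365).

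**Figure D2:**
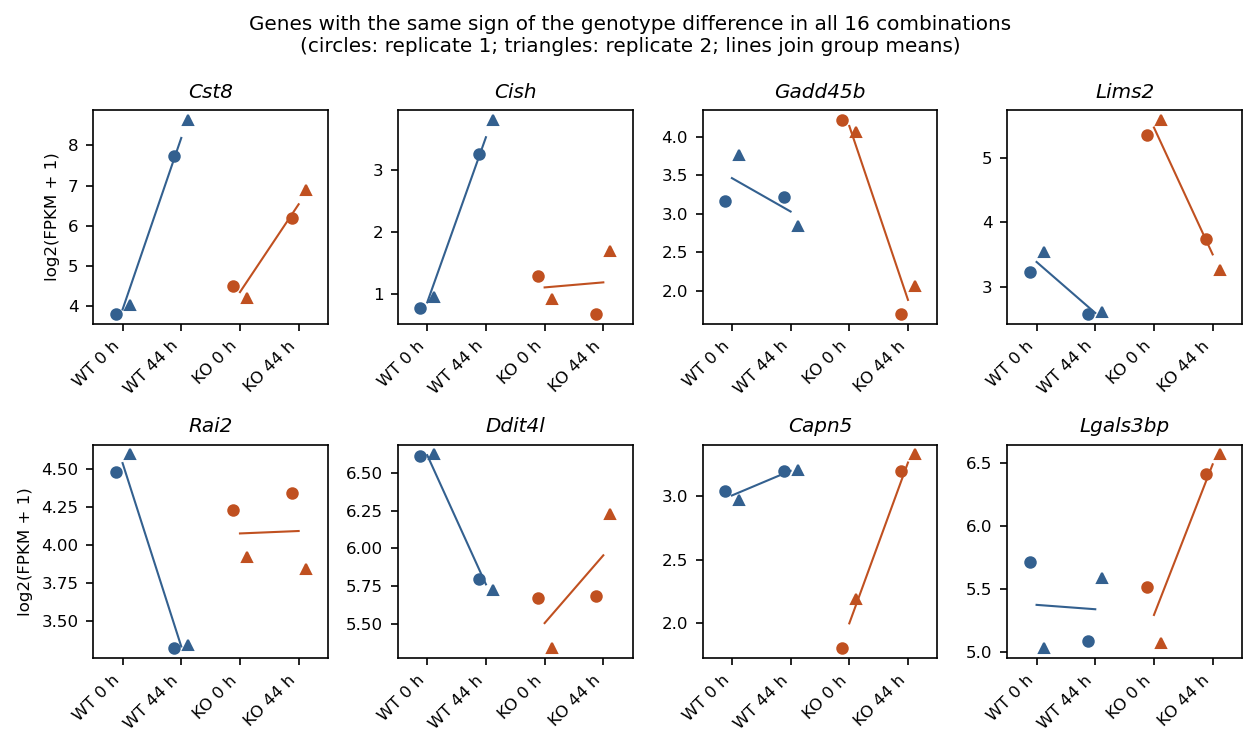
Level in each library as log2(FPKM + 1) (vertical axis) by group (horizontal axis) for 4 genes with a lower and 4 with a higher PMSG change in KO, WT in blue and KO in orange. In Cst8 and Cish the KO libraries at 44 h lie below both WT libraries, and in Lims2 the KO libraries at 0 h lie above the rest.

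Genotypes did not overlap at 0 h in 10 of the 12 lower and 11 of the 12 higher genes, and at 44 h in 12 and 9 of them. Over all genes tested these shares were 46.6% at 0 h and 39.2% at 44 h. The choice of these genes used the same values, so nothing is read from these counts.

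Genes of luteal differentiation and steroid synthesis differed widely between the 2 KO libraries at 44 h. Luteal genes had a median difference of -1.44 (log2, 17 genes tested), at -2.42 with KO replicate 1 and 0.35 with replicate 2. Lhcgr, the LH receptor, was 5.33 and 2.28 FPKM in untreated WT, then 299 and 308 after PMSG, against 2.53 and 1.41, then 18.8 and 261 in KO. Ptgfr, the receptor of the luteolytic prostaglandin, was 0.251 and 0.209, then 29.3 and 25.9 in WT, and 0.320 and 0.178, then 0.264 and 37.6 in KO. Replicate 1 was at the level of untreated cells for Ptgfr, and replicate 2 was above WT. Sfrp4, a secreted WNT modulator, was 5.10 and 0.926, then 904 and 735 in WT, and 0.409 and 1.76, then 13.7 and 598 in KO. Akr1c18, which inactivates progesterone, was 1.18 and 3.72, then 54.6 and 45.7 in WT, and 2.95 and 8.24, then 1.31 and 155 in KO. With replicate 1 alone, limma called 9 of the 17 luteal genes lower, where the share over all genes was 0.781% (adjusted p from 0.00266 for Ptgfr to 0.0441 for Star) and 0 higher. With all 8 libraries it called 0, and 2 (Cst8 and Slc7a8) had an unadjusted p under 0.05.

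Some luteal genes did not follow that split, among them Cst8, described above, which lay below WT in both KO libraries at 44 h. Slc7a8, an amino acid transporter, was 6.84 and 4.88 FPKM in untreated WT, then 53.6 and 38.1 after PMSG, but 20.1 and 18.6, then 62.8 and 67.6 in KO. Its difference of -1.06 (SE 0.312, limma unadjusted p = 0.00975) was -1.12 and -1.01 with KO replicates 1 and 2, and came with a higher KO level at both times. Ren1, renin, was 0.145 and 0.131, then 5.17 and 5.05 in WT, and 0.0651 and listed at 0, then 9.93 and 6.88 in KO (0.74, SE 0.321, limma unadjusted p = 0.0504). Both KO libraries at 44 h lay above WT for Slc7a8 and Ren1, unlike for Lhcgr.

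Steroidogenesis genes had a median difference of -0.29 (17 of 26 below 0), at -0.84 with KO replicate 1 and 0.27 with replicate 2. Mrap, the accessory protein of melanocortin receptors, was 15.3 and 17.5, then 411 and 447 FPKM in WT, and 28.0 and 36.7, then 108 and 375 in KO. Its difference was -2.01 (SE 0.686, limma unadjusted p = 0.0198), and it was below 0 with either KO library (-2.90 and -1.12). Star, the carrier of cholesterol to the inner mitochondrial membrane, was 5.03 and 1.45, then 132 and 205 in WT, and 1.94 and 2.64, then 8.61 and 77.7 in KO (-2.36, SE 1.23). For Star both KO libraries at 44 h lay below WT, whereas KO replicate 2 reached the WT range for Cyp19a1. Cyp19a1, the aromatase of estrogen synthesis, was 16.8 and 9.55, then 96.4 and 129.6 in WT, and 11.1 and 13.8, then 29.4 and 122 in KO. Cyp11a1, the first enzyme of steroid synthesis, had a difference of -3.71 with KO replicate 1 and 0.56 with replicate 2. It was 78.3 and 29.7, then 4451 and 4339 in WT, and 24.1 and 13.5, then 129 and 2508 in KO. Cyp11a1 thus lay below WT in both KO libraries at 0 h and at 44 h. Fdxr and Fdx1, which pass electrons to it, were at -1.83 and -1.87 with replicate 1 and -0.47 and -0.07 with replicate 2. Limma called 6 of 26 lower with replicate 1 alone (0.781% over all genes), Fdxr and Fdx1 (adjusted p = 0.0225 for both) among them. Theca and stroma markers were at medians of -0.46 and -0.10 with replicates 1 and 2. Their part in the result was not tested.

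**Figure D3:**
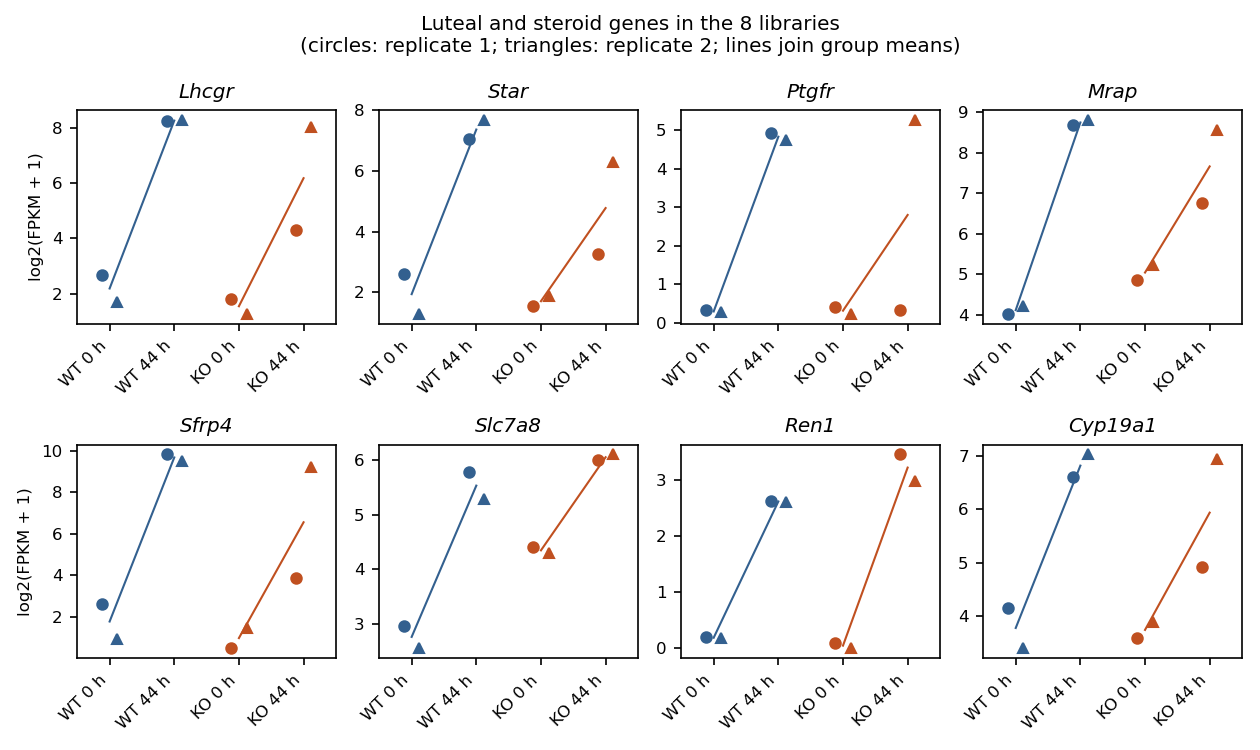
Level in each library as log2(FPKM + 1) (vertical axis) by group (horizontal axis) for 8 luteal and steroid genes, WT in blue and KO in orange. In Lhcgr, Ptgfr, Sfrp4 and Cyp19a1 KO replicate 1 (circle) lies far below replicate 2 (triangle) at 44 h, and in Slc7a8 and Ren1 the circle and the triangle lie together.

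The promoters of these genes were searched because luteal and steroid genes are known targets of the nuclear receptors NR5A1 and NR5A2, which bind the letters AAGGTCA. Windows from 250 bases before to 50 bases after the gene start came from RefSeq, build GRCm38.p6. Of the 13 luteal or steroid genes called lower with KO replicate 1, 10 had a window. Star, Mrap and Sfrp4 had none and were not searched. AAGGTCA on either strand was in 1 of the 12 windows of those 10 genes (8.33%), against 4.72% of all 32851 windows and 3.37% of the windows of genes tested. That window was of Bhmt, a methionine cycle enzyme. It is printed with that of the luteal gene Cst8, which was not called, as windows with a match, with these letters in capitals, 5′ to 3′ on the strand of the gene. The Bhmt window is chr13:93637709-93638008 (minus strand), with matches that begin 73 and 48 bases before the start, and the Cst8 window is chr2:148798589-148798888 (plus strand), with 1 that begins 47 bases before it.
Bhmt: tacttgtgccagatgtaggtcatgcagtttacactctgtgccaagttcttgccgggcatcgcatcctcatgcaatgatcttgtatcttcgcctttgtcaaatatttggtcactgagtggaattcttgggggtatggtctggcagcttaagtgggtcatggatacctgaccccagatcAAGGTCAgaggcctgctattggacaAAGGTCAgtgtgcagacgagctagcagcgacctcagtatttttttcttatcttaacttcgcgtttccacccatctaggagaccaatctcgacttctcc
Cst8: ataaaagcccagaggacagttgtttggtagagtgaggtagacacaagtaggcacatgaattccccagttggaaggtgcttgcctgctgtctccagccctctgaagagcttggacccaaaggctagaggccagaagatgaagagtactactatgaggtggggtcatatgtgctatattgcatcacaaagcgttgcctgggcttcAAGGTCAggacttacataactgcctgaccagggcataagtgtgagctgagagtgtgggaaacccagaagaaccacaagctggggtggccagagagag
The cAMP response letters TGACGT on either strand were in 1 of the same 12 windows (8.33%), in 7.51% of all windows and in 10.9% of those of genes tested. A match of letters is not shown to be a bound site. Bhmt was 3.54 and 1.20, then 107 and 114 FPKM in WT, and 0.808 and 1.16, then 0.935 and 54.2 in KO, a difference of -5.17 with KO replicate 1 and -0.33 with replicate 2.

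Lipid and carbon metabolism genes also differed between the KO libraries. Cholesterol synthesis genes were below 0 in 23 of 24 with KO replicate 1 (median -0.98) and above 0 in 22 of 24 with replicate 2 (median 0.63), against 48.3% and 50.3% of all genes above 0. Fdps, which makes farnesyl diphosphate, was 186 and 174, then 532 and 555 FPKM in WT, and 126 and 125, then 159.8 and 586 in KO. Dhcr7, the last-step reductase, was 23.7 and 21.4, then 98.3 and 110.4 in WT, and 12.4 and 10.1, then 14.0 and 80.3 in KO. Replicate 1 was near the untreated KO level in both genes and replicate 2 near WT. Glycolysis genes were below 0 in 19 of 20 with replicate 1 (median -0.78) and above 0 in 17 of 20 with replicate 2 (0.31). Idh1, a cytosolic enzyme that makes NADPH, was 229 and 154, then 1341 and 1253 in WT, and 114 and 132, then 138 and 1503 in KO. Plin5, a lipid droplet protein, was 0.610 and 1.01, then 52.3 and 69.0 in WT, and 0.932 and 0.910, then 0.457 and 46.6 in KO. Limma called Fdps, Dhcr7, Idh1 and Plin5 lower with replicate 1 alone (adjusted p = 0.0370, 0.0226, 0.0132 and 0.00266), and they were chosen after their values were seen. Angptl4, a lipoprotein lipase inhibitor, and Me1, the cytosolic malic enzyme, were below 0 with either library (-2.79 and -0.76, and -2.49 and -0.98).

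FSH-induced genes had no shared direction, with a median difference of 0.05 (12 of 22 above 0). The median was -0.19 with KO replicate 1 (10 of 22 above 0) and 0.18 with replicate 2 (16 of 22). Sgk1, a kinase gene induced by FSH, was 15.7 and 12.5, then 204 and 189.6 FPKM in WT, and 11.5 and 18.3, then 19.9 and 189.9 in KO. In contrast Inhbb, an activin and inhibin subunit, was 132 and 101, then 195 and 220.4 in WT, and 91.3 and 96.4, then 194 and 273 in KO (0.44, SE 0.301). KO replicate 1 was thus at the WT level at 44 h for Inhbb and near the untreated level for Sgk1. Ccnd2, the cyclin of granulosa proliferation, was 290.4 in KO replicate 1 and 163 in replicate 2 at 44 h, against 127 and 171 in WT. Granulosa identity genes were above 0 in 16 of 18 (median 0.15, 0.24 and 0.17 with replicates 1 and 2). Nr5a1, the steroidogenic nuclear receptor, was 30.5 and 22.6, then 42.6 and 45.9 in WT, and 18.5 and 15, then 40.3 and 41.8 in KO (0.52, SE 0.274). Bmpr1b, a BMP receptor, was 59.2 and 54.0, then 34.3 and 15.6 in WT, and 58.0 and 59.2, then 39.9 and 38.9 in KO (0.69, SE 0.440). Limma called 4 of the 22 FSH-induced genes lower with replicate 1 alone and 0 of the 18 identity genes in either direction, where 0.781% of all genes were called lower and 0.0664% higher.

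LH and ovulation genes were below 0 in 15 of 21 (median -0.14, -0.40 and -0.03 with KO replicates 1 and 2). Cebpa, a transcription factor of the ovulatory response, had a difference of -0.59 (SE 0.315) and Nrip1, a nuclear receptor corepressor needed for ovulation, one of 0.54 (SE 0.248). Immediate-early genes had a median of -0.0083 (-0.11 and -0.12 with KO replicates 1 and 2). Dusp1, a MAP kinase phosphatase, was 15.2 and 18.4, then 104 and 87.0 FPKM in WT, and 28.8 and 21.1, then 22.7 and 79.2 in KO (-1.67, SE 0.693, limma unadjusted p = 0.0434). Egr1, an early growth response factor, was 51.8 and 56.8, then 30.2 and 13.0 in WT, and 58.6 and 21.9, then 65.2 and 25.3 in KO (1.58, SE 0.831). The libraries of Egr1 overlapped between groups, and those of Dusp1 did not overlap between genotypes at either time. Follicular matrix genes were below 0 in 14 of 19 (median -0.52, -0.76 and -0.08 with replicates 1 and 2), with Sparc, a matrix-binding glycoprotein, at -2.31 and -0.39.

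Cell cycle genes lay on the other side of 0, with either KO library at 44 h. The values with each share the WT libraries and the KO libraries at 0 h, so they are not separate checks. G1/S genes were above 0 in 38 of 41 (median 0.36), in 40 of 41 with KO replicate 1 (0.47) and in 31 of 41 with replicate 2 (0.18). The sign was higher in all 16 combinations for 11 of the 41, where the share over all genes was 4.5%. Mcm4, a subunit of the replication helicase, was 58.6 and 64.0, then 35.5 and 38.9 FPKM in WT, and 47.7 and 62.9, then 62.9 and 49.2 in KO. At 44 h both KO libraries were above WT, and the difference was 0.73 (SE 0.277, limma unadjusted p = 0.0311). Cdc45, which activates that helicase, was 28.8 and 34.3, then 17.2 and 20.2 in WT, and 29.1 and 33.3, then 27.8 and 25.7 in KO (0.51, SE 0.248). G2/M genes were above 0 in 36 of 42 (median 0.20, 0.24 and 0.17 with replicates 1 and 2), and 7 of the 42 were higher in all 16 combinations. Top2a, the mitotic topoisomerase, was 72.2 and 77.6, then 51.5 and 43.7 in WT, and 64.8 and 75.5, then 56.3 and 69.1 in KO (0.48, SE 0.248). In WT the G1/S median change was -0.55 and in KO -0.22. Limma called 0 of these genes with all 8 libraries or with either KO library alone, and Mcm4 was the 1 with an unadjusted p under 0.05 in the fit of all 8. Oocytes also express cell cycle genes. Oocyte markers had a median difference of -0.13, at 0.31 with replicate 1 and -0.49 with replicate 2, and their part in this result was not tested.

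Secretory stress genes and translation genes differed in how far the KO libraries matched. Unfolded protein response genes were above 0 in 22 of 26 (median 0.33, 0.47 and 0.20 with replicates 1 and 2). Pdia3, a disulfide isomerase, was 976 and 1104, then 977 and 961 FPKM in WT, and 705 and 888, then 1250.2 and 979 in KO (0.58, SE 0.286). Cytosolic ribosomal protein genes lay on opposite sides of 0 with the 2 KO libraries: 74 of 75 were above 0 with KO replicate 1 (median 0.51) and 74 of 75 below 0 with replicate 2 (-0.28). Their summed FPKM was 74073 in KO replicate 1 and 42533 in replicate 2 at 44 h and between 52292 and 61769 in the other 6 libraries. Oxidative phosphorylation genes were above 0 in 41 of 48 with replicate 1 (0.15) and below 0 in 39 of 48 with replicate 2 (-0.11).

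The mRNA decay machinery had small differences. CCR4-NOT subunits had a median of 0.12 (8 of 11 above 0), and Cnot9, listed as Rqcd1, was 29.2 and 28.6, then 22.4 and 20.7 FPKM in WT, and 28.6 and 31.2, then 30.05 and 26.4 in KO (0.33, SE 0.220). Other decay factors had a median of 0.08 (30 of 41 above 0) and deadenylation adaptors, which bring the complex to mRNAs, of 0.02 (9 of 17 above 0). With KO replicate 1 alone, 29 of 41 other decay factors were above 0 (median 0.20), and with replicate 2 alone 19 of 41 (-0.02). The medians with replicates 1 and 2 were 0.33 and 0.10 for CCR4-NOT subunits and -0.06 and -0.02 for adaptors. Btg3, an antiproliferative adaptor of the complex, was 3.88 and 4.33, then 3.52 and 7.85 in WT, and 15.5 and 7.32, then 0.00158 and 5.46 in KO (-2.51, SE 1.12, limma unadjusted p = 0.0561). The near-0 value of Btg3 in KO replicate 1 may be a failed estimate. Limma called 0 genes of these 3 lists with all 8 libraries, and Btg3 lower with replicate 1 alone (adjusted p = 0.0406).

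**Figure D4:**
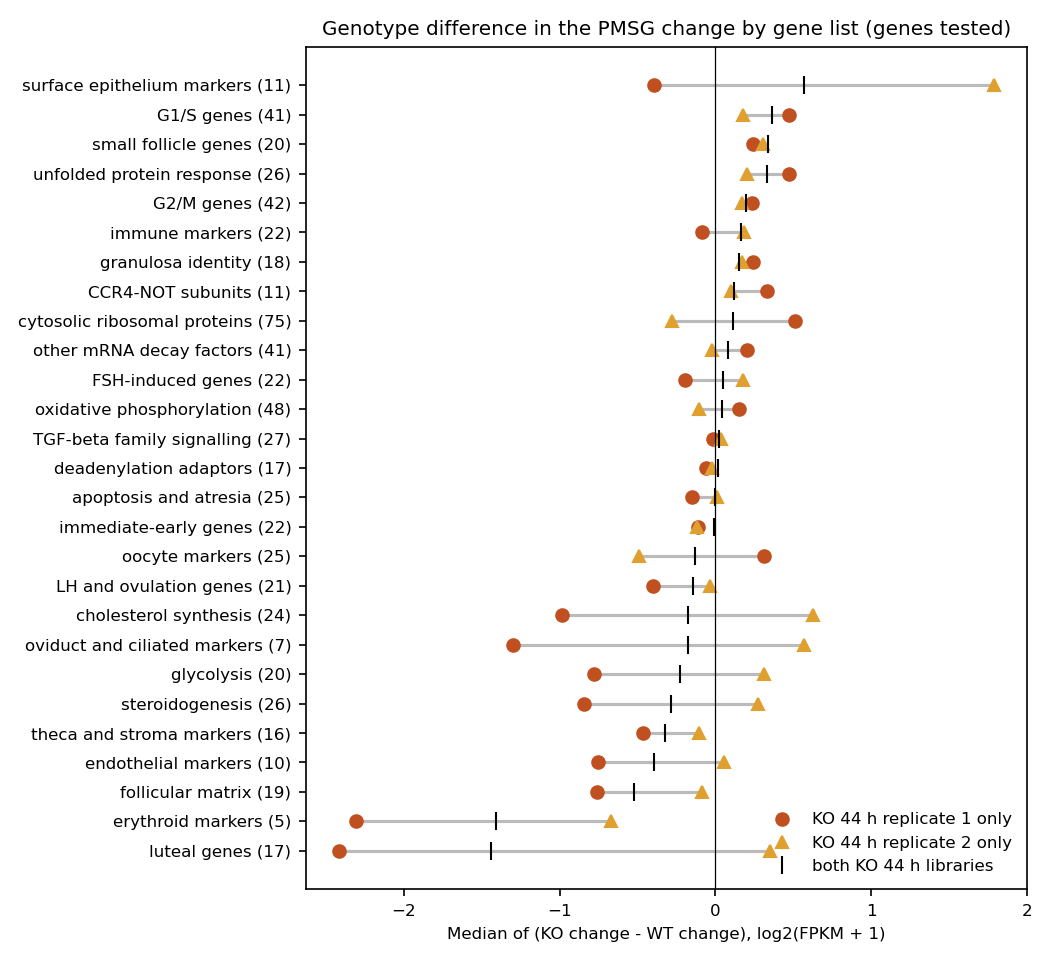
Median genotype difference in the PMSG change on log2(FPKM + 1) (horizontal axis) for 27 gene lists (vertical axis, genes tested in brackets) with both KO libraries at 44 h and with each alone. Luteal genes range from -2.42 to 0.35 between the KO libraries, while G1/S and G2/M genes are above 0 with either.

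Markers of cells other than granulosa cells also differed between the KO libraries. Surface epithelium markers had a median difference of -0.39 with KO replicate 1 and 1.79 with replicate 2, and their summed FPKM was 151 and 489 in those libraries and between 128 and 245 in the other 6. Msln, mesothelin, was 9.59 and 11.7, then 11.5 and 21.0 FPKM in WT, and 6.81 and 3.70, then 10.9 and 29.99 in KO. Summed oviduct and ciliated markers were 320 in KO replicate 2 and 11.6 in replicate 1 at 44 h, and 385 and 14.6 in WT at 44 h. Endothelial markers had medians of -0.75 and 0.05, and summed erythroid markers ranged from 40.7 to 957 over the libraries, lowest in KO replicate 1 at 44 h. Summed surface epithelium markers were thus high in 1 KO library, and oviduct markers in 1 library of each genotype. Immune markers had a median of 0.16, at -0.09 with KO replicate 1 and 0.19 with replicate 2. S100a9, a neutrophil gene, was 1.55 and listed at 0, then 2.19 and 1.73 in WT, and 0.559 and listed at 0, then 12.3 and 4.25 in KO (1.86, SE 0.776, limma unadjusted p = 0.0450). How far these cells enter the results was not tested.

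Genes that respond to PMSG were also read without using the same WT libraries to choose and to measure. Genes at least 1 higher (log2) at 44 h in 1 pair of WT libraries were measured in the other pair, for each of the 4 pairs. Between 600.0 and 837 genes were chosen, and their median change in the other WT pair was 1.01 to 1.42. In KO replicate 1 it was 0.0089 to 0.30 and in replicate 2 it was 1.32 to 1.46, against the mean of KO at 0 h. Replicate 1 was below the WT value in 79.5% to 88.2% of the genes and replicate 2 in 31.4% to 53.3%. Genes at least 1 lower in 1 WT pair (356 to 1147) were read in the same way. Their median was -0.58 to -0.996 in the other WT pair, -0.58 to -0.71 in KO replicate 1 and -0.92 to -1.23 in replicate 2. The medians of KO replicate 1 lay below those of WT for the first set and within their range for the second. The median genotype difference with KO replicate 2 alone was -0.026 to 0.38 for the first set and -0.042 to -0.55 for the second. Over all genes the median change was -0.13 in WT and -0.11 in KO.

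**Figure D5:**
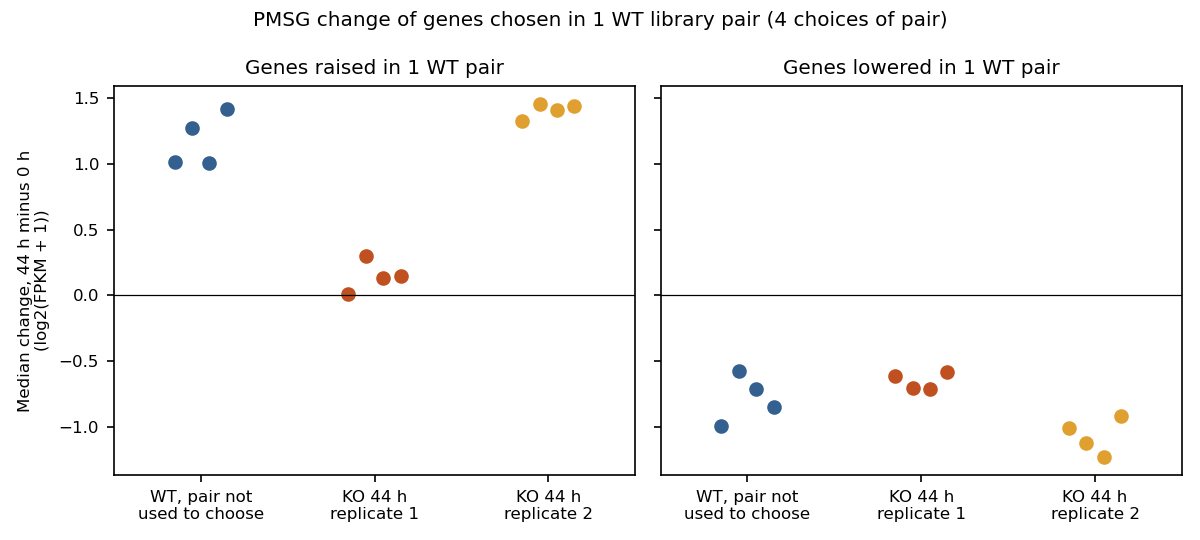
Median change from 0 h to 44 h on log2(FPKM + 1) (vertical axes) of genes chosen in 1 WT library pair, in the remaining WT pair and each KO library at 44 h (horizontal axes), with a point for each of the 4 pairs. For the raised genes (left) KO replicate 1 lies between 0.0089 and 0.30 and the rest between 1.01 and 1.46, and for the lowered genes (right) all points are below 0.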

How the data were processed

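The authors deposited 1 table of FPKM values, a column per library and a row per gene symbol, per the file headers. Names given, without a role, per the submitters' processing notes are mm9, Cufflinks 2.2.1 and TopHat2 2.1.1. Annotation and filters: not given in the sources used here. FPKM are not counts, so values were analysed as log2(FPKM + 1), which understates the change of low genes. A mean per group was fitted in R 4.3.3 by limma 3.58.1 to the 8 libraries (trended empirical Bayes, two-sided, 4 residual degrees of freedom), and the interaction was adjusted by Benjamini-Hochberg over 13564 genes. Standard errors (SE) are those of limma. The 27 gene lists and the genes described were chosen with earlier results of these data known, so lists are given as counts and medians without a test. Named genes were called genes, the 12 smallest p per direction with 1 sign in all 16 combinations, Cnot6 and Cnot6l, up to 3 members per list by p, and genes on which the KO libraries at 44 h differed. Others were chosen after their values were seen. Hmgcs1 was listed at 0 in every library and not tested. Scripts were tested on simulated data. Alternatives covered the pseudocount, filters, scaling, weights, a replicate block and leaving out each library.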

Additional observations from a re-analysis of the deposited data

How the results depend on the processing

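Limma called 0 genes with a pseudocount of 0.1, with no filter, with FPKM of at least 5 in 2 libraries, after quantile normalization or median-of-ratios scaling, with robust empirical Bayes, without the trend and with array weights. It also called 0 with a replicate block (207 at an unadjusted p under 0.05). Same-numbered libraries deviated with correlations of -0.25 to 0.096 between groups. Whether they share an animal, litter or batch was not tested, and the labels do not say. With short RNA entries kept it called 6, all of them such entries. Leaving out a library gave 0 to 115 calls, the 115 without KO replicate 2 at 44 h. The same sign in all 16 combinations was found for 1376 genes, for 2464 with no filter and for 892 with FPKM of at least 5 in 2 libraries, where the number of genes tested differs. For genes raised in 1 WT pair, the median difference was averaged over the pairs of same-numbered WT libraries. This mean was -0.40, and -0.32 to -0.91 under the alternatives of pseudocount, filter, scaling, threshold and pairing. Leaving out each library was not run for it as an alternative, but with KO replicate 2 alone at 44 h the 4 WT pairs gave 0.24, 0.13, 0.38 and -0.026.

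Leaving out each library in turn turned the direction of these genes, with the turn coming without KO replicate 1 at 44 h except for Cnot6l: Cited4 (-3.93 to 0.22), Comp (-3.56 to 0.20), Ptgfr (-4.52 to 0.41), Prlr (-2.30 to 0.36), Lhcgr (-3.30 to 0.42), Cyp11a1 (-3.71 to 0.56), Cyp19a1 (-1.85 to 0.16), Akr1c18 (-5.38 to 0.70), Sfrp4 (-5.00 to 0.35), Gm2a (-3.31 to 0.63), Idh1 (-2.61 to 0.82), Acly (-1.59 to 0.29), Fdps (-1.24 to 0.63), Dhcr7 (-1.86 to 0.58), Hsd17b7 (-1.87 to 0.66), Sdc1 (-2.24 to 0.13), Rgs2 (-0.032 to 1.17), Cd7 (-0.070 to 1.67), Dkkl1 (-1.38 to 2.23) and Cnot6l (-0.22 to 0.71). Nog was -0.75, and 0.20 with a pseudocount of 0.1. Leaving out libraries other than those of KO at 44 h kept the medians of luteal genes (-1.78 to -1.05) and steroidogenesis genes (-0.42 to -0.23) below 0 and of G1/S (0.28 to 0.46) and G2/M genes (0.096 to 0.32) above it. Depth per gene is known only relative to the other libraries, so no counting error is given.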

Other observations

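Among the 9 genes that limma called higher with KO replicate 1 as the only KO library at 44 h, several were at a level there that no other library had. Sectm1b was 181 FPKM in that library and between 0.706 and 5.66 in the other 7 (6.09, log2, adjusted p = 0.0115). Dkkl1 was 38.9 there and 2.27 in KO replicate 2, against 4.56 and 6.93 in WT at 44 h (adjusted p = 0.0369). Cd7, a leukocyte surface gene, was 32.2 and 36.1, then 16.8 and 19.3 in WT, and 28.4 and 23.7, then 45.5 and 12.9 in KO (1.67 with replicate 1). Both Dkkl1 and Cd7 were lower at 44 h than at 0 h in WT. Rgs2, a regulator of G protein signalling, was 417 and 408, then 186 and 194 in WT, and 370.3 and 341, then 368 and 159.7 in KO (adjusted p = 0.0469). Kiss1, the kisspeptin precursor, was 4.83 and 2.74, then 2.39 and 1.69 in WT, and listed at 0 in both libraries, then 5.43 and 1.52 in KO. Its sign was the same in all 16 combinations (1.47 to 3.80), as was that of Cxcl1, a neutrophil chemokine (0.015 to 2.38). These genes were chosen after their values were seen.

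By a fixed size rule, 39 genes had a difference of at least 2 with KO replicate 1 alone and at most 0.3 with replicate 2 alone, 37 of them lower. The reverse held for 7 genes, all of them higher. Timp4, a metalloprotease inhibitor, after PMSG was 25.0 and 32.9 FPKM for WT, against 0.393 and 33.1 for KO. Tppp3, a gene of ciliated and mesenchymal cells, after PMSG was 8.32 and 53.5 for KO, against 12.1 and 9.61 for WT. Acute-phase Saa3 was 4.31 and 0.489, then 57.5 and 49.4 in WT, and 1.21 and listed at 0, then 44.4 and 71.4 in KO, so it was higher at 44 h in both genotypes. Retnlg, a neutrophil gene, after PMSG was 0.962 and 1.02 for WT, against 7.26 and 3.46 for KO.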
